A study of Mus musculus with 6 samples.

Results

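E-cadherin, its catenin partners and the desmosomes of liver cells were followed through 10 genes, taken by name from the 54532 rows of the deposited table. They were Cdh1, Cdh2, Ctnna1, Ctnnb1, Ctnnd1, Jup, Pkp2, Dsp, Dsg2 and Dsc2, and each matched 1 row. RNA had been sequenced from primary hepatocytes of C57BL/6 mice aged 32 to 34 weeks and fed a high-fat diet over 26 weeks. The 3 XCON libraries came from mice with floxed Xbp1 alleles (Xbp1FL/FL), and the 3 XCKO libraries from mice lacking Xbp1 in hepatocytes (Xbp1ΔHep). Diet, age and strain were shared by both groups, and the labels name no Cre driver for the deletion. The Xbp1 protein acts in the nucleus to switch on genes that relieve stress in the endoplasmic reticulum.

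Adherens junctions hold neighbouring epithelial cells together through classical cadherins, whose outer domains bind cadherins on the next cell and whose tails bind catenins. Beta-catenin and p120-catenin sit on the cadherin tail, and alpha-catenin ties the complex to actin. Desmosomes are a related junction in which desmogleins and desmocollins bind plakoglobin, plakophilins and desmoplakin, and desmoplakin anchors keratin filaments. Hepatocytes carry both E-cadherin and N-cadherin, and E-cadherin is found mainly in hepatocytes around the portal tract and in bile duct cells. Free beta-catenin also acts in the nucleus as the effector of Wnt signalling, which in liver drives genes around the central vein.

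The libraries held 23919355 to 26502456 counts in XCON and 26477489 to 27240079 in XCKO. Xbp1 had 4453 to 9434 counts in XCON and 1013 to 1558 in XCKO, with no overlap between the groups. The summed level of 10 hepatocyte markers was 67310 to 93570 counts scaled to library size (CPM) in XCON and 93450 to 121900 CPM in XCKO. Mitochondrial transcripts took 22.8% of the counts in XCON 1 and 8.99% to 13.1% in the other 5 libraries. Globin was 329.2 CPM for XCKO 1 and 824.8 CPM for XCKO 3, while the other 4 libraries held 9.128 to 18.59 CPM. Neither the labels of single samples nor the table names a mouse, so the spread between libraries is the only error measured.

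The 10 genes were chosen by name, selected on fold changes of this same comparison that were already known, and Cdh1 is the gene whose fall drew attention to the family. Their differences between XCKO and XCON are therefore given as a description, and nothing is supported with them. All 10 had enough reads to be tested. Of them, 1 was past the threshold of edgeR's quasi-likelihood fit over all genes (adjusted p of 0.05), Cdh1, which was lower in XCKO, beside 9.27% of all 14873 tested genes (4.05% lower and 5.21% higher). The median log2 fold change of the 10 was 0.16, beside -0.05 over all genes tested. In 5 of the 10 the 3 XCKO libraries did not overlap the 3 XCON libraries, beside 35.7% of all tested genes. Cdh1 lay below and Cdh2, Ctnnb1, Jup and Dsc2 lay above.

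**Figure D1:**
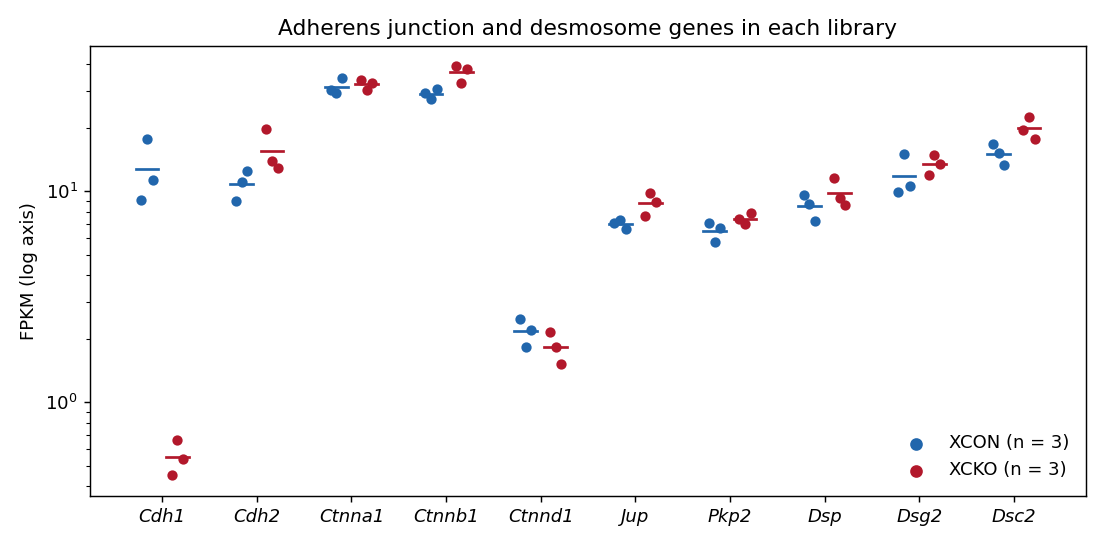
FPKM of each of the 10 genes on a log axis, with 1 point per library, a bar for the mean of each group, XCON in blue and XCKO in red. Cdh1 stands between 9.11 and 17.7 in XCON and between 0.452 and 0.665 in XCKO, whereas the group means of each of the other 9 genes lie close to each other on this axis.

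Cdh1, which encodes E-cadherin (ENSMUSG00000000303, mm10 chromosome 8, 106603351 to 106670246, plus strand), spans 66.9 kb, and its principal transcript has 17 exons in GENCODE M21. No other annotated gene overlaps it, so its reads are not shared with a partner on either strand. It had 1117, 2303 and 1542 counts in XCON 1, 2 and 3, and 51, 80 and 56 counts in XCKO 1, 2 and 3. Scaled to library size, these were 43, 84.4 and 52.1 CPM in XCON and 2.06, 3.11 and 2.42 CPM in XCKO. The highest XCKO library was thus far below the lowest XCON library. The log2 fold change was -4.56 ± 0.31 (SE), with a 95% interval of -5.26 to -3.86, a 23.6-fold difference. Over all tested genes only 2 had a more negative log2 fold change, since Cdh1 ranked 3 from the lowest. The signal left in XCKO was 187 counts over its 3 libraries, against 4962 in XCON. In bulk RNA, fewer cells with Cdh1 and less Cdh1 per cell cannot be told apart.

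Cdh2, which encodes N-cadherin (ENSMUSG00000024304, chromosome 18, 16588877 to 16809246, minus strand), lay on the other side. It stood at 75.1, 93.6 and 101 CPM in XCON 1, 2 and 3 and at 160, 114 and 103 CPM in XCKO 1, 2 and 3. Every XCKO library was above every XCON library, although XCKO 3 and XCON 3 lay close together. The log2 fold change was 0.48 ± 0.21 (SE), with a 95% interval of 0.02 to 0.95, and it did not pass over all genes. Without XCKO 1, the highest library, the log2 fold change was 0.28.

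Set per length, both cadherins had similar levels in XCON and very different ones in XCKO. Cdh1 had 12.7 ± 4.4 FPKM (SD, n = 3) and Cdh2 10.9 ± 1.7 FPKM (SD, n = 3) in XCON, against 0.552 ± 0.11 and 15.6 ± 3.7 FPKM (SD, n = 3) in XCKO. The Cdh1 to Cdh2 ratio of FPKM was 1.01, 1.59 and 0.91 in XCON 1, 2 and 3. It was 0.0227, 0.0478 and 0.0416 in XCKO 1, 2 and 3. Cdh1 made up 47.7% to 61.4% of the 2 genes' summed FPKM in XCON and 2.22% to 4.57% in XCKO. The sum itself overlapped between the groups, at 18.1, 28.8 and 23.8 FPKM in XCON and 20.3, 14.6 and 13.5 FPKM in XCKO. XCKO 1, where Cdh2 was highest, had a larger sum than XCON 1, where Cdh1 was lowest among the controls.

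**Figure D2:**
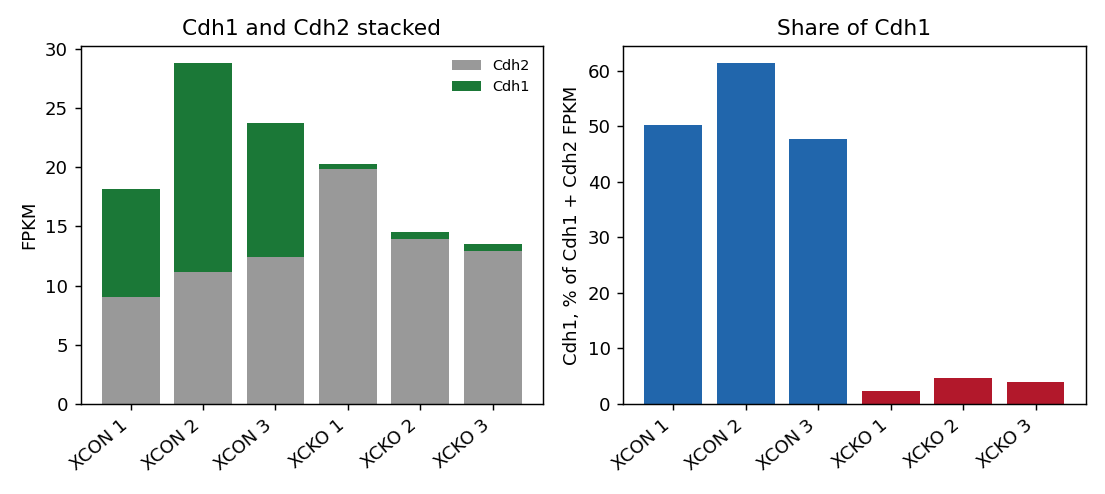
Left, FPKM of Cdh2 (grey) and Cdh1 (green) stacked for each of the 6 libraries, and right, the share of Cdh1 in that sum in percent. The share is 47.7% to 61.4% in the XCON libraries and 2.22% to 4.57% in the XCKO libraries, while the stacked heights overlap between the groups.

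The catenins had no fall like that of Cdh1. Ctnna1, which encodes alpha-E-catenin (ENSMUSG00000037815, chromosome 18, 35118888 to 35254773, plus strand), had 30.2, 29.3 and 34.3 FPKM in XCON 1, 2 and 3 and 33.5, 30.1 and 32.8 FPKM in XCKO 1, 2 and 3. These values overlapped fully, and the log2 fold change was 0.00 ± 0.14 (SE), with a 95% interval of -0.32 to 0.33. Ctnnb1, which encodes beta-catenin (ENSMUSG00000006932, chromosome 9, 120929216 to 120960507, plus strand), had 29.2, 27.3 and 30.6 FPKM in XCON and 39.1, 32.7 and 38.2 FPKM in XCKO. All XCKO libraries were above all XCON libraries, with a log2 fold change of 0.30 ± 0.15 (SE), a 95% interval of -0.04 to 0.64 and no call. Ctnnd1, which encodes p120-catenin, a protein that holds cadherins at the cell surface (ENSMUSG00000034101, chromosome 2, 84600071 to 84650765, minus strand), was the lowest catenin. It had 2.47, 1.84 and 2.19 FPKM in XCON and 2.15, 1.83 and 1.51 FPKM in XCKO, with overlap between the groups. Its log2 fold change of -0.28 ± 0.18 (SE) was the only other one below 0 among the 10 genes, and its 95% interval was -0.69 to 0.14.

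Relative to the 2 cadherins together, Ctnnb1 transcripts were more abundant in every XCKO library, whereas those of Ctnna1 overlapped between the groups. The FPKM of Ctnnb1 divided by the sum of Cdh1 and Cdh2 was 1.61, 0.946 and 1.29 in XCON 1, 2 and 3. In XCKO 1, 2 and 3 it was 1.93, 2.24 and 2.83, without overlap. The same ratio for Ctnna1 was 1.67, 1.02 and 1.44 in XCON and 1.65, 2.06 and 2.43 in XCKO. There XCKO 1 fell within the XCON range. Cdh1, whose fall was already known, is part of the divisor, so higher ratios in XCKO partly restate that fall. Ctnnb1 itself had no call. Transcript ratios are not protein ratios, and no protein was measured here.

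Plakoglobin, encoded by Jup (ENSMUSG00000001552, chromosome 11, 100368958 to 100397763, minus strand), is a close relative of beta-catenin and is found in both kinds of junction. It had 7.11, 7.3 and 6.66 FPKM in XCON 1, 2 and 3 and 7.68, 9.87 and 8.91 FPKM in XCKO 1, 2 and 3. The groups did not overlap, but the gap from 7.3 to 7.68 FPKM was small, and the log2 fold change was 0.29 ± 0.15 (SE), with a 95% interval of -0.05 to 0.63. The Ctnnb1 to Jup ratio of FPKM was 4.15 ± 0.43 in XCON and 4.23 ± 0.89 in XCKO (SD, n = 3), a difference smaller than either SD.

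Among the desmosomal cadherins, Dsc2 and Dsg2 were the 2 that hepatocytes in both groups expressed at the levels of Cdh2. Dsc2, which encodes desmocollin-2 (ENSMUSG00000024331, chromosome 18, 20030633 to 20059554, minus strand), had 16.8, 15.2 and 13.3 FPKM in XCON 1, 2 and 3 and 19.6, 22.5 and 17.8 FPKM in XCKO 1, 2 and 3. Its XCKO libraries were all higher, with a log2 fold change of 0.37 ± 0.17 (SE), a 95% interval of -0.01 to 0.75 and no call. Dsg2, which encodes desmoglein-2 (ENSMUSG00000044393, chromosome 18, 20558074 to 20604521, plus strand), had 9.9, 15.1 and 10.6 FPKM in XCON and 12, 14.9 and 13.4 FPKM in XCKO. XCON 2 was its highest library of all, the groups overlapped, and the log2 fold change was 0.14 ± 0.20 (SE), with a 95% interval of -0.32 to 0.60.

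The plaque genes differed little. Pkp2, which encodes plakophilin-2 (ENSMUSG00000041957, chromosome 16, 16213318 to 16272712, plus strand), had 7.1, 5.74 and 6.67 FPKM in XCON 1, 2 and 3 and 7.39, 7.01 and 7.86 FPKM in XCKO 1, 2 and 3. Its log2 fold change was 0.15 ± 0.14 (SE), with a 95% interval of -0.15 to 0.46. Dsp, which encodes desmoplakin (ENSMUSG00000054889, chromosome 13, 38151294 to 38198577, plus strand), had 9.65, 8.68 and 7.26 FPKM in XCON and 11.6, 9.33 and 8.58 FPKM in XCKO. The fold change on the log2 scale was 0.17 ± 0.18 (SE), with a 95% interval of -0.24 to 0.58. In both genes the groups overlapped.

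**Figure D3:**
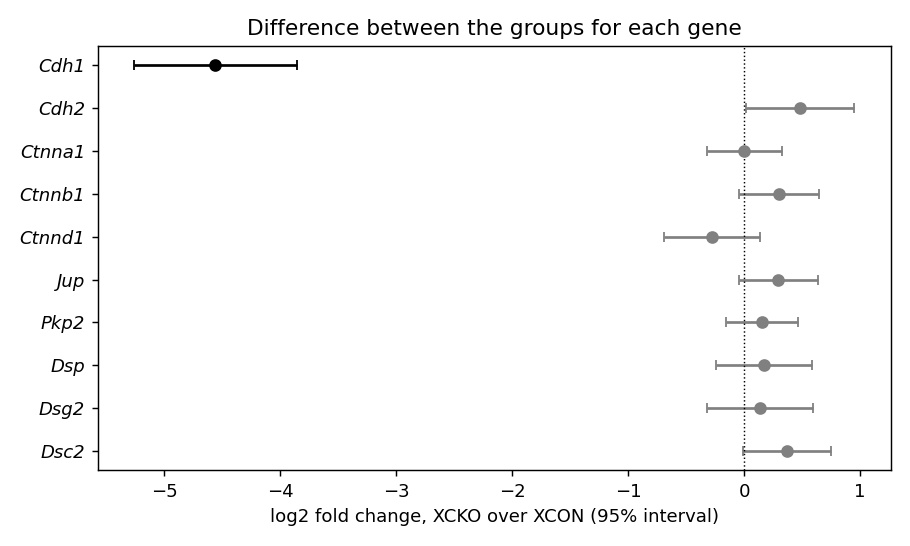
Log2 fold change of XCKO over XCON for each of the 10 genes, with 95% intervals from edgeR's fit over all genes, and the 1 gene past an adjusted p of 0.05 in black. Cdh1 is at -4.56, the other 9 lie between -0.28 and 0.48, and with library totals alone as the scaling Ctnna1, Pkp2, Dsp and Dsg2 move below 0.

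In the order of FPKM, Ctnna1 and Ctnnb1 stood first in both groups and overlapped each other. The next gene in XCON was Dsc2, followed by Cdh1, Dsg2, Cdh2, Dsp, Jup and Pkp2, in which each gene overlapped the one below it. Ctnnd1 was last, and its highest XCON library was below the lowest of Pkp2. In XCKO the order was Dsc2, Cdh2, Dsg2, Dsp, Jup, Pkp2 and Ctnnd1 with Cdh1 at the end, so that Cdh1 went from the fourth to the last place. Its highest XCKO library, 0.665 FPKM, was below the lowest of Ctnnd1, 1.51 FPKM. Within XCON, Cdh1 was also the most variable of the 10, with a highest library 1.94 times its lowest, against 1.10 to 1.52 times for the other 9.

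Scaling bears on the direction of the small differences. With library totals alone in place of TMM scaling, the median log2 fold change of all tested genes moved from -0.05 to -0.31. Ctnna1, Pkp2, Dsp and Dsg2 then had log2 fold changes of -0.26, -0.11, -0.09 and -0.12, while Cdh1 was at -4.82 and Cdh2 at 0.22. Fold changes also followed gene length, with a median of 0.21 for the shortest decile and -0.25 for the longest, and the 10 genes lay in deciles 5 to 10. With that trend removed, the call of each of the 10 was the same as before. No overlapping or antisense gene of a member held more than 26 counts over all 6 libraries.

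Markers of bile duct cells (cholangiocytes), which also express E-cadherin, had lower summed levels in XCKO, and their part in the fall of Cdh1 was not tested. The 10 markers summed to 282.3 to 607.9 CPM in XCON and 97.07 to 172.8 CPM in XCKO, without overlap, and none was at 0 in all libraries. Of the 8 tested, 0 passed edgeR's adjusted p of 0.05, 7 were lower at an unadjusted p under 0.05, and DESeq2 called 3 as lower. Most of the sum was Spp1, which encodes osteopontin, with 563, 227 and 245 CPM in XCON 1, 2 and 3 and 76.7, 76.3 and 157 CPM in XCKO 1, 2 and 3. Krt19, the keratin that defines bile duct cells in liver, had 1.85, 10.9 and 0.27 CPM in XCON and 0.729, 0.466 and 0.432 CPM in XCKO. These levels rest on 8 to 298 counts in XCON and 10 to 18 in XCKO, and the groups overlapped. Epcam, an epithelial adhesion gene of bile duct cells, had 3.16, 4.22 and 0.947 CPM in XCON and 0.769, 0.776 and 1.12 CPM in XCKO, and the groups overlapped here too. These 3 markers were named after their values were seen.

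Summed markers of stellate cells, macrophages and lymphocytes were also mostly lower in XCKO. The 10 stellate and fibroblast markers summed to 267.2 to 494.7 CPM in XCON and 110.2 to 275.4 CPM in XCKO, with 3 of 9 tested genes lower (Lrat, Pdgfrb and Lum). Of these 9, 7 were lower at an unadjusted p under 0.05, 6 were lower by DESeq2, and 0 were higher by either. The 10 macrophage markers summed to 1069 to 2058 CPM in XCON and 365.8 to 987.1 CPM in XCKO, with 1 of 10 lower (Cd68). Of these 10, 4 were lower at an unadjusted p under 0.05, 4 were lower by DESeq2, and 0 were higher by either. The 8 lymphocyte markers summed to 55.55 to 117.5 CPM and 16.22 to 53.61 CPM, and 0 of 7 passed (1 at an unadjusted p under 0.05, and 1 by DESeq2). For sinusoidal endothelium the sums were 781.8 to 799.5 CPM and 580.3 to 1143 CPM, and 0 of 10 passed at either level or by DESeq2. The 5 tested erythroid genes had log2 fold changes above 0 and 0 passed (5 at an unadjusted p under 0.05, and 5 by DESeq2), the sums being 42.14 to 69.95 CPM in XCON and 77.36 to 920.6 CPM in XCKO. Of 6 mesothelial markers 1 had enough reads to be tested, and it did not pass by either tool or at an unadjusted p under 0.05. Mesothelial sums were 2.13 to 3.733 CPM and 1.553 to 3.545 CPM. The part of these cells in the differences of the 10 genes was not tested.

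The gene lists that follow were fixed from textbook knowledge with earlier results of these data known. Each count of edgeR calls stands beside the 9.27% of all tested genes that passed. That share is no background for the other counts given for lists, cell markers and Cdh1 neighbours. DESeq2 called more genes in all, 2524 (1366 higher, 1158 lower) against 1378 in edgeR. More than 9.27% of tested genes have an unadjusted p under 0.05, but that share was not counted, so no excess can be read from those counts. Other members of the cadherin family were mostly low in these cells, and 2 of them were called as lower on few reads. Of 16 genes, 12 were tested, 1 was higher, 2 lower and 9 did not pass, with a median log2 fold change of -0.25 beside -0.05 over all genes. At an unadjusted p under 0.05, 1 was higher and 5 lower, and DESeq2 called 1 as higher and 3 as lower. The groups did not overlap in 6 of the 12 with XCKO below and in 1 with XCKO above. Over all tested genes these shares were 18.1% below and 17.6% above. Cdh3, which encodes P-cadherin (chromosome 8, 106510891 at its start), had 20, 17 and 12 counts in XCON 1, 2 and 3 and 2, 1 and 0 counts in XCKO 1, 2 and 3. On the log2 scale the difference was -3.73 ± 0.80 (SE) at an adjusted p of 0.027 (edgeR, quasi-likelihood). Summed over libraries, the 49 counts in XCON and 3 in XCKO give a ratio of 14.5, with a 95% counting interval of 4.68 to 72.8. Cdh6, a classical cadherin known best from kidney, had 23, 11 and 11 counts in XCON and 0, 1 and 1 in XCKO. Its log2 fold change was -4.12 ± 0.87 (SE) at an adjusted p of 0.026, and its counts gave a ratio of 20, with a 95% counting interval of 5.22 to 170.1. Both calls rest on few reads, and each was lost without any 1 of the 6 libraries. Their edgeR adjusted p-values were then at most 0.081 for Cdh3 and 0.085 for Cdh6, both without XCON 1. Cdh3 and Cdh6 also passed the read filter through their XCON libraries alone. A gene admitted in that way can hardly be called as higher in XCKO, so nothing is supported with the direction of these 2 calls. Clstn3, a calsyntenin with cadherin repeats, rose from 21.5 ± 2.7 to 67 ± 9.3 CPM (SD, n = 3), equal to a log2 fold change of 1.64 ± 0.17 (SE) at an adjusted p of 0.0034. Cdh5, the cadherin of endothelial cells, had 67.8 ± 9.1 and 63.2 ± 28 CPM (SD, n = 3) and did not pass.

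Cdh3 is also the cadherin gene nearest to Cdh1 on the chromosome, and the other genes there were examined too. Within 500 kb of either end of Cdh1 the table lists 32 other genes, of which 20 were tested. Cdh3 was the 1 past the threshold, and 0 were higher. Its call rests on 49 counts in XCON and 3 in XCKO. As given above, Cdh3 passed the read filter through XCON alone and lost its call without any 1 library. The other 19 had log2 fold changes between -0.94 (Slc7a6) and 0.51 (Esrp2), with 12 above and 7 below 0. Of these 19, 1 had an unadjusted p under 0.05, and 0 passed by DESeq2. On the near side, Gm10073 lies between Cdh3 and Cdh1 and had 2.62 CPM in XCON and 1.91 CPM in XCKO, with a log2 fold change of -0.46 and an adjusted p of 0.36. On the far side, Tango6, which begins just past the end of Cdh1, had 6.7 and 8.56 CPM, a log2 fold change of 0.35 and an adjusted p of 0.27. Apart from Cdh3, no tested neighbour passed as lower.

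**Figure D4:**
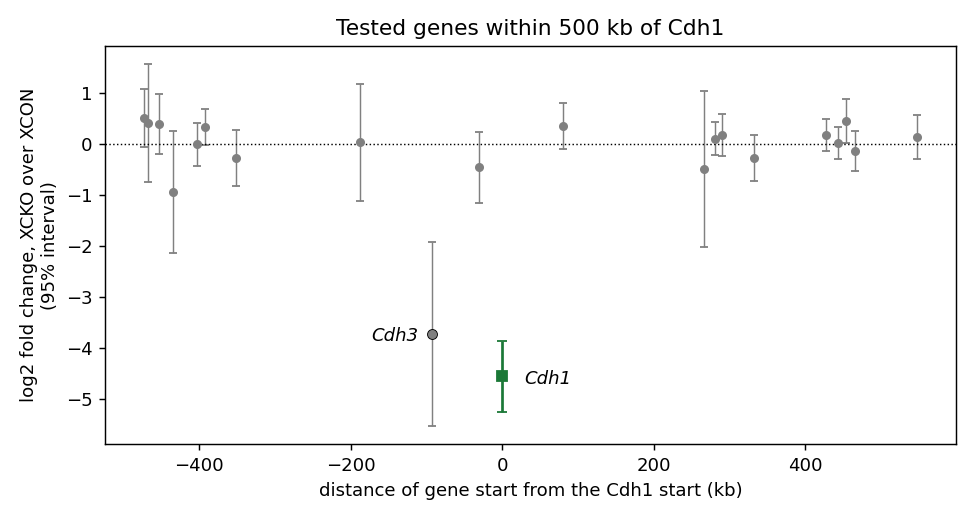
Log2 fold change of XCKO over XCON, with 95% intervals, for the 20 tested genes that begin within 500 kb of either end of Cdh1 (circles) and for Cdh1 (green square), against the distance of each start from that of Cdh1 in kb. Cdh3 at -3.73 and Cdh1 at -4.56 lie far below the other 19 genes, which lie between -0.94 and 0.51. The value of Cdh3 rests on few reads, 49 counts in XCON and 3 in XCKO.

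Proteins that join the cadherin-catenin complex at the membrane had few called genes. Of 28 adherens junction partners, 25 were tested, 0 were higher, 2 lower and 23 did not pass, with a median of -0.10. At an unadjusted p under 0.05, 1 was higher and 4 lower, and DESeq2 called 0 as higher and 2 as lower. Iqgap1, a scaffold that binds both E-cadherin and beta-catenin, fell from 89.5 ± 18 to 37.7 ± 14 CPM (SD, n = 3), with a log2 fold change of -1.25 ± 0.30 (SE) and an adjusted p of 0.04. Ptprf, a receptor phosphatase that associates with cadherin complexes, fell from 226 ± 38 to 129 ± 28 CPM (SD, n = 3), with a log2 fold change of -0.81 ± 0.21 (SE) and an adjusted p of 0.048. Iqgap1 is also abundant in macrophages, whose marker sums were 1069 to 2058 CPM in XCON and 365.8 to 987.1 CPM in XCKO, and its share from them was not tested. Ptprf lost its call without any 1 library (adjusted p up to 0.13, without XCKO 3). Iqgap1 lost it without XCKO 3 or any XCON library, with an adjusted p up to 0.11 without XCON 1. With the length trend removed neither passed (adjusted p = 0.072 for Ptprf and 0.12 for Iqgap1), and the list then had 1 gene higher and 0 lower. That gene was Nectin3, a nectin of adherens junctions, at an adjusted p of 0.035 against 0.098 before, and it was named after its values were seen. The fit without XCON 2 also gave 1 higher and 0 lower.

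Of 20 further desmosome and keratin genes, 12 were tested, 0 were higher, 1 lower and 11 did not pass, with a median of -0.02. As higher, 3 had an unadjusted p under 0.05 and 3 passed by DESeq2, and as lower these numbers were 2 and 1. Krt8 and Krt18 encode the pair of keratins that form the hepatocyte filaments to which desmosomes attach. Krt18 had 375, 213 and 235 CPM in XCON 1, 2 and 3 and 116, 142 and 167 CPM in XCKO 1, 2 and 3, so that every XCKO library was lower. The fold change on the log2 scale was -0.95 ± 0.25 (SE) at an adjusted p of 0.047, and it lost its call without any 1 library (up to 0.12, without XCKO 1) and under DESeq2-type size factors in edgeR. Krt8, its partner, had 489, 260 and 363 CPM in XCON and 281, 302 and 342 CPM in XCKO, with full overlap and a log2 fold change of -0.26 ± 0.24 (SE). Desmogleins and desmocollins of skin were nearly absent, since Dsg1a, Dsg3, Dsg4 and Dsc3 had no read in any library. Dsg1c was the exception, with 15.7, 4.77 and 6.56 CPM in XCON and 22.7, 25.5 and 26.1 CPM in XCKO, a log2 fold change of 1.46 ± 0.41 (SE) and an adjusted p of 0.066. DESeq2 called Dsg1c as higher (adjusted p of 0.0011). It was chosen after its values were seen.

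Repressors of Cdh1 were taken as transcription factors of epithelial-mesenchymal transition together with the chromatin enzymes Ezh2, Hdac1 and Hdac2. Of these 14 genes, 10 were tested, 0 were higher, 1 lower and 9 did not pass, with a median of -0.20. At an unadjusted p under 0.05, 0 were higher and 3 lower, and DESeq2 called 0 as higher and 2 as lower. Zeb2 fell from 46.7 ± 13 to 18.8 ± 7 CPM (SD, n = 3), with a log2 fold change of -1.31 ± 0.31 (SE) and an adjusted p of 0.042. Its call was lost in every fit without 1 library except that without XCKO 2 (adjusted p up to 0.099, without XCON 1), and with the length trend removed (0.14). Zeb2 is also a macrophage gene, and the macrophage marker sums given above were lower in XCKO too. The part of macrophages in the fall of Zeb2 was not tested. Zeb1 had 18.1 ± 1.8 and 16.2 ± 1.9 CPM (SD, n = 3), Snai2 5.95 ± 1.9 and 3 ± 0.86, and Twist1 1.2 ± 0.6 and 1.02 ± 0.8, and none of the 3 passed in edgeR. DESeq2 called Snai2 as lower (adjusted p of 0.044). Snai1 had 9, 14 and 18 counts in XCON 1, 2 and 3 and 46, 2 and 12 counts in XCKO 1, 2 and 3. The groups overlapped at these low counts. On the log2 scale the difference was 0.73 ± 0.87 (SE).

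Of 16 epithelial activators, 11 were tested, 1 was higher, 0 were lower and 10 did not pass, with a median of 0.32. As lower, 3 had an unadjusted p under 0.05 and 1 passed by DESeq2, and as higher these numbers were 2 and 2. Cebpa, a factor of the hepatocyte programme, rose from 246 ± 59 to 509 ± 88 CPM (SD, n = 3), with a log2 fold change of 1.05 ± 0.23 (SE) and an adjusted p of 0.03. Its call was lost in the fits without XCON 1, XCON 3, XCKO 2 and XCKO 3, with adjusted p-values up to 0.088 (without XCKO 3). Of 12 mesenchymal genes, 10 were tested, 0 were higher, 1 lower and 9 did not pass, with a median of -1.48. At an unadjusted p under 0.05, 7 were lower and 0 higher, and DESeq2 called the same numbers. Acta2, which encodes smooth muscle actin and marks activated stellate cells, fell from 2.69 ± 2 to 0.397 ± 0.11 CPM (SD, n = 3), with a log2 fold change of -2.75 ± 0.59 (SE) and an adjusted p of 0.027. It lost its call without XCON 3 or any XCKO library (up to 0.088, without XCKO 3). Several of these genes are markers of stellate cells, whose summed level was 267.2 to 494.7 CPM in XCON and 110.2 to 275.4 CPM in XCKO. These sums overlapped, and Col1a1 and Col1a2 are in both lists. The part of stellate cells in these differences was not tested.

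Enzymes that cut cadherins at the cell surface had 1 call. Of 18, 16 were tested, 1 was higher, 0 were lower and 15 did not pass, with a median of 0.02. As lower, 2 had an unadjusted p under 0.05 and 1 passed by DESeq2, and as higher these numbers were 2 and 1. Aph1a, a subunit of gamma-secretase, which cleaves E-cadherin after shedding, rose from 42.4 ± 8 to 95.1 ± 9.2 CPM (SD, n = 3), with a log2 fold change of 1.16 ± 0.17 (SE) and an adjusted p of 0.011. It passed without any 1 of the libraries (adjusted p up to 0.044). The sheddase gene Adam10, which releases the outer domain of E-cadherin, had 61.9 ± 13 and 52.8 ± 5.7 CPM (SD, n = 3) and was named after its values were seen.

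Genes for the turnover of beta-catenin and its nuclear partners had no call in edgeR. Of 20, 17 were tested, 0 passed, 2 had an unadjusted p under 0.05 (both higher) and 0 passed by DESeq2, with a median of -0.05. The smallest p was that of Gsk3a, a kinase of the destruction complex, with 17.3 ± 1.2 and 21.7 ± 2.2 CPM (SD, n = 3) and an adjusted p of 0.16. Of 18 beta-catenin targets and pericentral genes, all tested, 2 were higher, 1 lower and 15 did not pass, with a median of -0.17. DESeq2 called 4 as higher and 2 as lower. Which genes were called depended on the setting, since library totals alone gave 0 higher and 3 lower. The fit without XCKO 3, with TMM scaling, gave the same numbers. Glul, the glutamine synthetase gene of cells around the central vein, had 404, 411 and 354 CPM in XCON 1, 2 and 3 and 164, 136 and 264 CPM in XCKO 1, 2 and 3. Its log2 fold change was -1.05 ± 0.25 (SE) at an adjusted p of 0.036. Notum, a secreted Wnt inhibitor, rose from 13 ± 2.6 to 24 ± 4.7 CPM (SD, n = 3), and Cyp27a1, a bile acid enzyme, rose from 350 ± 31 to 568 ± 53 CPM (SD, n = 3). Their log2 fold changes were 0.89 and 0.70, with adjusted p-values of 0.032 and 0.04. With library totals alone these fold changes stayed above 0, at 0.63 and 0.44, and neither gene passed. Axin2 had 3.93 ± 1.2 and 3.01 ± 0.99 CPM and Lgr5 4.53 ± 0.61 and 3.76 ± 1.3 CPM (SD, n = 3), and neither passed. With 1 library left out, Glul passed only without XCKO 3 (up to 0.1, without XCKO 2), Notum only without XCKO 1 (up to 0.079, without XCON 3) and Cyp27a1 never (up to 0.1, without XCKO 1).

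Genes of periportal hepatocytes, the zone where E-cadherin is found, had 2 genes called as higher. Of 16, all tested, 2 were higher, 0 lower and 14 did not pass, and the median was 0.66. At an unadjusted p under 0.05, 9 were higher and 1 lower, and DESeq2 called 8 as higher and 1 as lower. The groups did not overlap in 8 of the 16 with XCKO above and in 1 with XCKO below. Over all tested genes these shares were 17.6% above and 18.1% below. In edgeR, 1 gene also passed as lower with library totals alone (beside 1 higher), with no low-count filter (beside 6), with at least 5 CPM in 3 libraries (beside 2) and without XCON 1 (beside 1). Asl, of the urea cycle, rose from 248 ± 25 to 632 ± 180 CPM (SD, n = 3), with a log2 fold change of 1.35 ± 0.23 (SE) and an adjusted p of 0.016 that stayed under 0.05 without any 1 library. Uox, the urate oxidase gene, rose from 1060 ± 89 to 2020 ± 450 CPM (SD, n = 3) at an adjusted p of 0.034, and passed only without XCKO 2 when 1 library was left out (up to 0.1, without XCKO 3). Hepatocyte markers were also above 0 in all 10 tested genes, with 1 called as higher (Asgr1). Without both XCON 1, the library with most mitochondrial reads, and XCKO 3, the one with most globin, a setting chosen after seeing the data, none of the 15 called list genes passed (smallest adjusted p 0.052, for Clstn3), whereas Cdh1 did. Dsg1c, which had no call with all 6 libraries, passed as higher in that setting (edgeR, adjusted p of 0.04).

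**Figure D5:**
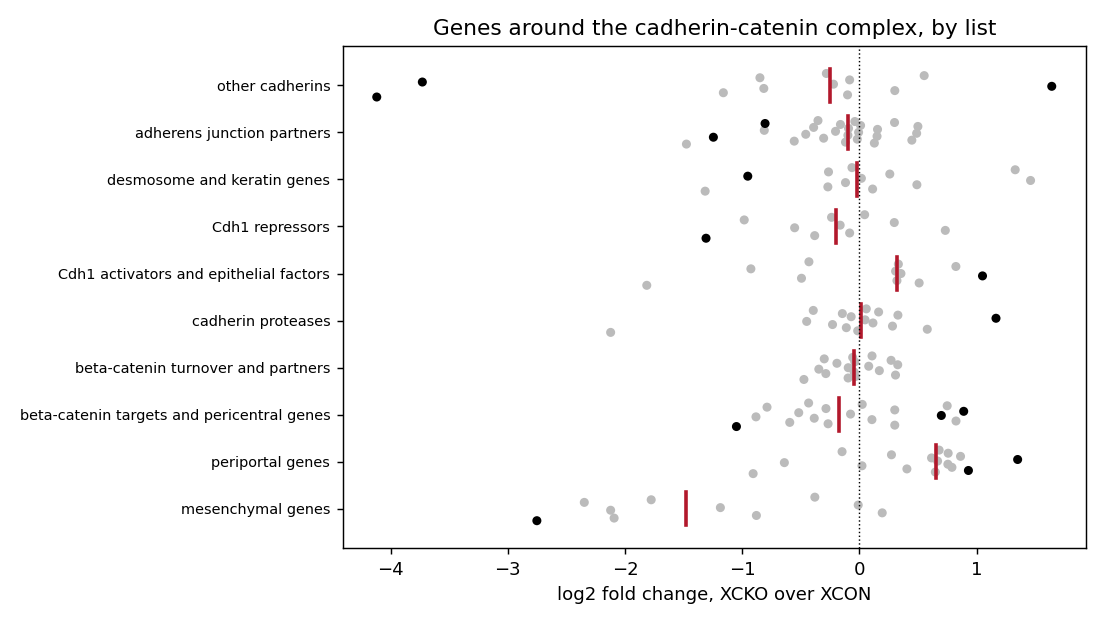
Log2 fold change of XCKO over XCON for each tested gene of the 10 lists, with genes past an adjusted p of 0.05 in black, the others in grey and the median of each list as a red bar. No list holds a gene lower than Cdh1 at -4.56. Cdh6 and Cdh3, at -4.12 and -3.73, are the lowest points and rest on few reads.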

How the data were processed

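RNA-seq libraries of hepatocytes (3 XCON, 3 XCKO) were made with a NEBNext Ultra kit from Trizol RNA, per the labels' protocols. The authors deposited raw read counts per Ensembl gene. Bowtie 0.12.2 is listed in the submitters' processing notes, as are mm10 and mm8, with no roles. The counter and its strand setting are not given. Table coordinates matched GENCODE M21 (mm10) in start and end for 98.3% of shared identifiers. In the deposited FPKM columns each value was the gene's count over its length and over a library size from median-of-ratios size factors. The authors' group means (a signal, in scaled counts) were not used for results. The authors' deposited log2 fold changes and p-values were not used for results, and no tool is given for them.

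Genes passing filterByExpr (14873) were tested on counts with edgeR 4.0.16 (quasi-likelihood, TMM, robust, R 4.3.3) and Benjamini-Hochberg adjustment over all of them, with a threshold of 0.05. Standard errors come from the F statistic and the size of the log2 fold change, and 95% intervals use the fit's degrees of freedom. CPM use TMM-scaled totals. Counting intervals are exact and cover counting error only. Alternatives were size factors, library totals, 2 other filters, DESeq2 1.42.0, limma 3.58.1 (voom, and log2 FPKM with pseudocounts of 1 and 0.1), a length trend, a replicate block and each library left out. The fit was tested on simulated data.

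The members and lists were chosen with earlier results of these data known. Named are the 10 genes, up to 5 called genes per list by p, or the 1 with the smallest p, tested neighbours of Cdh1 by range, and fixed genes (Xbp1, Snai1, Snai2, Zeb1, Zeb2, Twist1, Krt8, Krt18, Axin2, Glul, Lgr5, Cdh3, Cdh5). No promoter of Cdh1 or protein sequence was used here.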

Additional observations from a re-analysis of the deposited data

How the results depend on the processing

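Of the 10 genes, 1 (Cdh1) passed in each of the 17 alternatives, with log2 fold changes of -4.82 to -3.10, the last with a pseudocount of 1 on FPKM. It was -4.75 to -4.23 with 1 library left out. The other 9 passed in none. With library totals alone, Ctnna1 (-0.26), Pkp2 (-0.11), Dsp (-0.090) and Dsg2 (-0.12) changed sign. Ctnna1 also did so with the 5 CPM filter (-0.058), in 3 of the fits without 1 library (range -0.028 to 0.085), and without both XCON 1 and XCKO 3 (-0.018), a setting chosen after seeing the data.

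The count of all genes past the threshold was 1378 (775 higher, 603 lower). It was 2358 with library totals alone (326 higher, 2032 lower), 2160 with no filter, 2524 with DESeq2, 309 to 810 with 1 library left out (fewest without XCKO 3) and 37 without both XCON 1 and XCKO 3. With the replicate block it was 322. Same-numbered libraries had correlations of deviations of 0.0554, 0.0765 and -0.168, and those with unlike numbers had -0.158 to 0.106. With groups of 3, these values cannot decide whether the numbers pair the samples, and the labels state no pairing. List counts moved by over 1.5 times in 86 of 170 combinations of list and setting, up in 27 and down in 59. The cause was not tested. The Cdh1 to Cdh2 ratio was 0.96 to 1.30 in XCON and 0.0322 to 0.0447 in XCKO with 1 library left out, and scaling cancels in it. Groups of 3 limit what differences can pass. In the simulated data, 38% of the 100 genes changed 2-fold and 96% of the 100 changed 4-fold passed. The changed genes were drawn only from genes with higher mean counts, and all others were left unchanged. These rates therefore do not cover genes with few reads, such as Cdh3 and Cdh6.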

Other observations

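Of the 16 other cadherins, 4 had too few reads to be tested and are given as counts only. Cdh11, a cadherin of mesenchymal cells, had 20, 3 and 1 counts in XCON 1, 2 and 3 and 2, 6 and 3 counts in XCKO 1, 2 and 3, so that the groups overlapped. Cdh16, a kidney-type cadherin, had 12 counts over the XCON libraries and 1 over the XCKO libraries, a ratio of 10.7 with a 95% counting interval of 1.58 to 455.7. Cdh17, an intestinal cadherin, had 10, 6 and 9 counts in XCON 1, 2 and 3 and 0, 2 and 1 counts in XCKO 1, 2 and 3, a ratio of 7.4 with an interval of 2.26 to 38.3. Cdhr2, a protocadherin-like gene of brush borders, had 4, 12 and 3 counts in XCON and 0, 0 and 1 in XCKO, a ratio of 16.9 with an interval of 2.68 to 701.4. These intervals cover counting error only, and the 4 genes were named after their values were seen.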
